A study of Rattus norvegicus with 20 samples.

Results

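The genes described here are 10 transcripts of macrophages and of the colony stimulating factor 1 (CSF1) axis, taken by gene symbol from the 39747 genes of the count table. They are the ligand genes Csf1 and Il34, the receptor gene Csf1r, the leukocyte gene Ptprc, the macrophage genes Aif1, Cd68, Mrc1, Cd163 and Trem2, and the arginase gene Arg1. Each symbol matched 1 row, and all 10 passed the filter on low counts (a minimum of 10 counts in 90% or more of a fit's libraries), so every one of them was tested in each comparison. RNA was sequenced from 20 dorsal root ganglion (DRG) samples of 14 female wild-type Sprague-Dawley rats. The study's methods give their age as 8 to 10 weeks before acclimatization and the diets. The age at tissue collection is not given there. The design asked how a fish oil diet and a nerve injury change DRG expression. The diets, both based on AIN-93G, held soy oil (SOD) as the control or were enriched in fish oil (FOD), starting 4 weeks before surgery. In chronic constriction injury (CCI), the left sciatic nerve received 4 loose ligatures of chromic gut, and in sham rats (CT) the same nerve was exposed and left untied. The left DRG gave 4 libraries of SOD-CT, 3 of FOD-CT, 3 of SOD-CCI and 4 of FOD-CCI rats, and the contralateral DRG of 3 SOD-CCI and 3 FOD-CCI rats gave 6 more. All rats were perfused with saline before dissection of the whole ganglia, whose spinal level is not given in the sources used here, and a SOD-CCI and a FOD-CT sample were dropped for low RNA before library preparation, so both groups kept 3. The labels give 4 weeks of diet after surgery while the study's text places this collection 1 week after CCI, and the sources used here do not settle which held for these ganglia.

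CSF1 and interleukin 34 are the ligands of the CSF1 receptor, a tyrosine kinase on macrophages, monocytes and microglia that keeps these cells alive and dividing. In a DRG, resident macrophages lie around the neuron cell bodies, and sensory neurons are known to switch on Csf1 when their axons are cut or tied. Ptprc encodes the pan-leukocyte phosphatase CD45, Aif1 the actin-binding protein IBA1, and Cd68 a lysosomal glycoprotein of phagocytes. Mrc1 (CD206) and Cd163 encode scavenger receptors, the latter for haptoglobin-hemoglobin complexes, and TREM2 is a lipid-sensing receptor that signals through TYROBP. Arginase 1 turns arginine into ornithine and is used as a marker of alternatively activated macrophages, but injured neurons also make it. RNA of whole ganglia was measured, so fewer cells of a type and less RNA per cell cannot be told apart.

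Several libraries stood apart before any gene was compared. Summed CPM (counts scaled to the library total) of 8 spinal cord glia genes reached 2793 to 4854 in the contralateral and left FOD-CCI libraries of rat 1 and in FOD-CT replicate 1, against 33.8 to 136 in the other 17. The library labelled FOD-CCI replicate 1 also went against its label in 12 injured sensory neuron genes (Gap43, Jun and Npy the most abundant). These summed to 387 CPM there, against 1432 to 3884 in the other 6 injured-side libraries and 269 to 766 in the 13 sham and contralateral ones. Csf1 of that library was 0.810 times its contralateral CPM, while Arg1 was 8.39 times. Skeletal muscle genes summed to 102678 CPM in SOD-CT replicate 1, which had the fewest genes with a count. They also reached 21602 CPM in FOD-CT replicate 2, 7596 CPM in contralateral FOD-CCI replicate 3 and 5607 CPM in SOD-CT replicate 4. On fish oil every sham library (540 to 21602 CPM) lay above every injured one (7.03 to 192 CPM) in this sum. The 10 sensory neuron genes of the DRG were present in every library but summed to 2893 CPM in contralateral FOD-CCI replicate 1, against 7124 to 28344 CPM in the other 19. Red cell genes summed to 17666 CPM in FOD-CCI replicate 2 and 7407 CPM in SOD-CT replicate 4, the libraries that also held the most neutrophil transcripts. Depth ran from 22547190 to 54437581 counts per library, so that 3 counts were worth less than 0.14 CPM in each, and the spread between rats set the precision. Several member values turned on 1 of these libraries, and those are given without it beside the result or among the processing alternatives. These libraries were singled out from the same data. FOD-CCI replicate 1 was low in injured neuron genes, so injury calls made without it are not independent evidence.

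Per gene length, the order of the 10 genes was led by the ligand Il34. Its deposited FPKM (fragments scaled to gene length and to a factor per library) had a median of 25.4 over the 20 libraries, followed by Aif1 at 20.1 and Csf1r at 13.8. Csf1 came next at 6.23, with Cd68 at 3.77 and Trem2 at 3.55 close together. Mrc1 (2.34), Arg1 (1.24), Ptprc (1.14) and Cd163 (0.374) were the lowest. Neighbours in this order overlapped in their ranges over the 20 libraries. The highest FPKM was 1.69 times the median for Il34, the lowest such ratio of the 10, and 6.10 times for Csf1, 15.7 times for Arg1 and 15.1 times for Cd163. Among the 200 values, 6 were counts of 0, spread over 3 libraries.

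**Figure D1:**
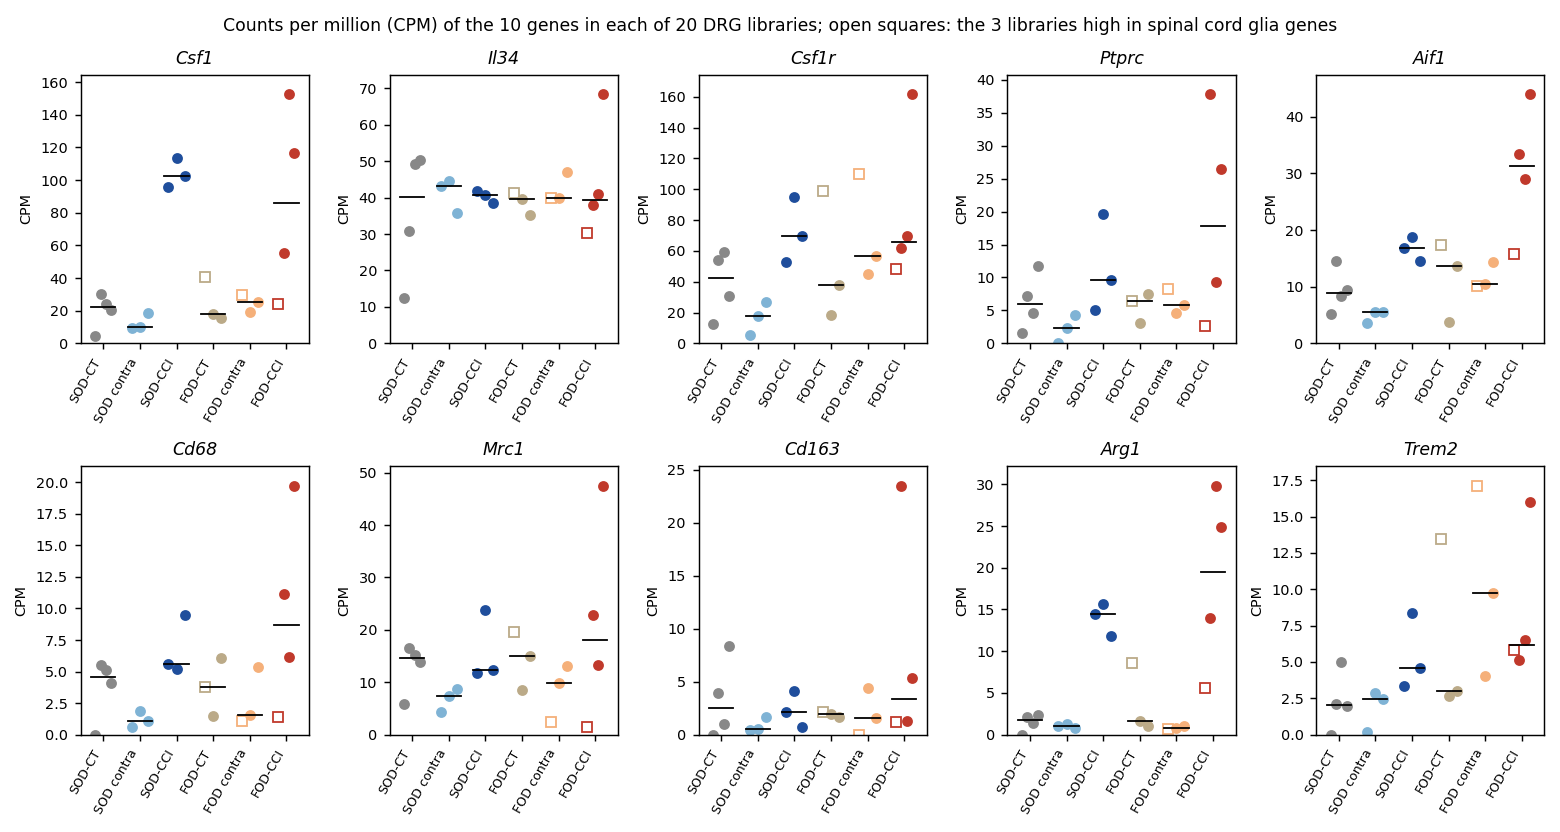
CPM of each of the 10 genes (vertical axes, linear from 0) in every library of the 6 groups (horizontal axes), with 1 point per library, a bar at the group median and open squares for the 3 libraries high in spinal cord glia genes. Csf1 and Arg1 of the 3 SOD-CCI libraries sat above all SOD-CT and contralateral SOD-CCI values, while Il34 stayed between 38.6 and 41.8 CPM.

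Csf1 had its highest values in injured ganglia on both diets, while those of Il34, the other ligand of the same receptor, overlapped between all groups. In SOD-CT ganglia Csf1 stood at 4.65, 30.3, 24.3 and 20.4 CPM in replicates 1 to 4. The SOD-CCI ganglia held 95.7, 113 and 103 CPM and their contralateral partners 9.44, 10.1 and 18.8 CPM. The injured SOD libraries thus did not overlap with either control group. On the fish oil diet Csf1 was at 40.5, 18.1 and 15.2 CPM in sham ganglia. The FOD-CCI ganglia held 24.2, 55.4, 152 and 116 CPM in replicates 1 to 4, and the contralateral ones 29.8, 19.1 and 25.5 CPM. The library labelled FOD-CCI replicate 1 lay within the sham range and the other 3 lay above every sham and contralateral FOD value. In the edgeR quasi-likelihood test with Benjamini-Hochberg adjustment, injury gave log2FC 2.31, SE 0.55, adjusted p = 0.266 on SOD and log2FC 1.89, SE 0.58, adjusted p = 0.9997 on FOD, neither past the threshold of an adjusted p of 0.1 with a fold change of 1.2. With the library labelled FOD-CCI replicate 1 and replicate 1 of both sham groups left out, the same test called both (log2FC 2.03, SE 0.30, adjusted p = 0.0214 on SOD and log2FC 2.66, SE 0.36, adjusted p = 0.0134 on FOD). These libraries stood apart in the same data, the first of them by its low injured neuron genes, so these calls are not independent evidence. Without the library labelled FOD-CCI replicate 1 alone, Csf1 was called on SOD (log2FC 2.31, SE 0.45, adjusted p = 0.0807), where 0.321% of genes were called, and not on FOD (log2FC 2.20, SE 0.49, adjusted p = 0.124).

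Il34, which in other tissues keeps resident macrophages such as microglia and Langerhans cells, varied little. It stood at 12.5, 30.8, 49.3 and 50.5 CPM in SOD-CT and 41.8, 40.8 and 38.6 CPM in SOD-CCI ganglia. FOD-CT held 41.2, 39.6 and 35.3 CPM and FOD-CCI 30.3, 37.8, 40.9 and 68.3 CPM. The contralateral DRG lay between 35.9 and 46.99 CPM on both diets. Apart from the muscle-rich SOD-CT replicate 1 at the bottom and FOD-CCI replicate 4 at the top, all libraries lay between 30.3 and 50.5 CPM, and no pair of groups was separated. Injury gave log2FC 0.078, SE 0.32, adjusted p = 0.930 on SOD and log2FC 0.23, SE 0.32, adjusted p = 0.9997 on FOD in edgeR. These turned to -0.15 without SOD-CT replicate 1 and to -0.046 without FOD-CCI replicate 4.

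Csf1r encodes the receptor that binds both ligands, and its sham and injured values overlapped on both diets. SOD-CT ganglia held 12.5, 54.1, 59.2 and 30.9 CPM, SOD-CCI ganglia 52.97, 94.8 and 70.0 CPM, and the contralateral SOD-CCI ganglia 5.17, 17.9 and 26.9 CPM. In SOD rats all injured values lay above all contralateral ones. On fish oil, sham ganglia held 98.6, 18.2 and 38.0 CPM, FOD-CCI ganglia 48.2, 61.7, 69.9 and 161 CPM and contralateral ganglia 109.8, 45.1 and 56.8 CPM. The high values of FOD-CT replicate 1 and contralateral FOD-CCI replicate 1 came from libraries with spinal cord glia transcripts. The microglia genes summed to 239.7 and 273 CPM there, against 72.7 to 211 CPM in the 17 libraries low in such transcripts. That 211 CPM belonged to FOD-CCI replicate 4, which had the highest Csf1r. The other library with spinal cord glia transcripts, FOD-CCI replicate 1, stood at 156 CPM. The part of spinal cord tissue in the Csf1r values was not tested. Injury gave log2FC 0.81, SE 0.52, adjusted p = 0.485 on SOD and log2FC 0.81, SE 0.53, adjusted p = 0.9997 on FOD by edgeR. The FOD value was 0.32 without FOD-CCI replicate 4 and 1.61 without FOD-CT replicate 1. With the 3 replicate 1 libraries left out, the FOD difference was called (log2FC 1.78, SE 0.44, adjusted p = 0.0677) and the SOD difference was not (log2FC 0.57, SE 0.37, adjusted p = 0.560).

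The Csf1r promoter is shown because PU.1, the myeloid transcription factor, is known to act through it, and because several members varied together. It lies on the plus strand of the GRCr8 assembly at chr18:56834129-56834428, from RefSeq, and runs from 250 bases before to 50 after the start of the gene. The Cd68 promoter, minus strand at chr10:54882392-54882691, is set beside it because it alone among the 6 member promoters in the table (those of Csf1, Il34, Aif1 and Arg1 were not searched) held AP-1 letters. Capitals mark the PU.1 core GAGGAA or its reverse complement TTCCTC in both and, in Cd68, TGAGTCA, the reverse complement of the AP-1 motif TGACTCA, a sequence bound by Fos and Jun proteins.
Csf1r: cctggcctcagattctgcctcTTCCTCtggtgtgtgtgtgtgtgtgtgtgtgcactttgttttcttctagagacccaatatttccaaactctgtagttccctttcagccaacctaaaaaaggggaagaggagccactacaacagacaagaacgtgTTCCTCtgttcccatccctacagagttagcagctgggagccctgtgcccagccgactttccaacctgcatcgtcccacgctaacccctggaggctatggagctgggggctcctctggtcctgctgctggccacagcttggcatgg
Cd68: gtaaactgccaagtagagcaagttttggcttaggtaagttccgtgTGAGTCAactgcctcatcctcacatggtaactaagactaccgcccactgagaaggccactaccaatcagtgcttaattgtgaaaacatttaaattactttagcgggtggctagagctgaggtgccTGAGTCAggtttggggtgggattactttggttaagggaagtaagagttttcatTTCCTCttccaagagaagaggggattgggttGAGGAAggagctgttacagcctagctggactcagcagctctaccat
The PU.1 core was found on either strand in 5 of the 6 member promoters in the table (Csf1r, Ptprc, Cd68, Mrc1 and Trem2, not Cd163), against 27.6% of all 33469 promoters of this length. AP-1 letters were found in Cd68 alone, at -205 and -80 from the start, against 4.63% of all promoters. The cyclic AMP response element TGACGTCA was in none of the 6, against 1.83% of all. No motif overlapped another. These matches describe letters in a window and not bound sites.

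The leukocyte gene Ptprc and the macrophage genes Aif1 and Cd68 were all higher on the injured than on the contralateral side in each of the 3 SOD-CCI rats. The edgeR test with all rats did not call them there, while DESeq2 called Aif1 (log2FC 1.70, SE 0.35, adjusted p = 0.000306) and Cd68 (log2FC 2.54, SE 0.67, adjusted p = 0.0117). Ptprc stood at 1.54, 7.23, 4.67 and 11.7 CPM in SOD-CT, 5.10, 19.6 and 9.67 CPM in SOD-CCI and 0, 2.35 and 4.29 CPM in contralateral SOD-CCI ganglia. On fish oil it was at 6.46, 3.15 and 7.55 CPM in sham, 2.60, 37.8, 9.26 and 26.5 CPM in FOD-CCI and 8.21, 4.62 and 5.77 CPM in contralateral ganglia. The highest Ptprc value came from the blood-rich FOD-CCI replicate 2, and sham and injured groups overlapped on both diets. Injury gave log2FC 0.75, SE 0.74, adjusted p = 0.666 on SOD and log2FC 1.80, SE 0.79, adjusted p = 0.9997 on FOD by edgeR. The SOD value was 0.15 without SOD-CCI replicate 2 and 1.25 without the blood-rich SOD-CT replicate 4, and the FOD value 1.21 without FOD-CCI replicate 2.

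Aif1 separated the injured from the contralateral side on both diets. It stood at 17.3, 3.73 and 13.6 CPM in FOD-CT, 15.8, 33.4, 29.1 and 43.96 CPM in FOD-CCI and 10.2, 10.5 and 14.4 CPM in contralateral FOD-CCI ganglia. All 4 FOD-CCI libraries lay above the 3 contralateral ones, and all but replicate 1 above sham. In SOD rats it was at 5.13, 14.5, 8.36 and 9.48 CPM in sham, 16.9, 18.7 and 14.5 CPM in injured and 3.66, 5.58 and 5.61 CPM in contralateral ganglia. SOD-CCI replicate 3 (14.50 CPM) lay just below SOD-CT replicate 2 (14.54 CPM), so those groups overlapped. edgeR gave log2FC 0.70, SE 0.42, adjusted p = 0.464 for injury on SOD and log2FC 1.48, SE 0.44, adjusted p = 0.9997 on FOD, and the FOD difference was called without the 3 replicate 1 libraries (log2FC 2.04, SE 0.45, adjusted p = 0.0512).

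Cd68 was scattered within each group. SOD-CT ganglia held 0, 5.49, 5.11 and 4.07 CPM, where the 0 is a count of 0 that allows up to 0.132 CPM (3 counts, for counting error only). SOD-CCI ganglia held 5.57, 5.23 and 9.46 CPM and the contralateral ones 0.610, 1.88 and 1.07 CPM. On fish oil the values were 3.76, 1.52 and 6.10 CPM in sham, 1.38, 11.2, 6.14 and 19.7 CPM in injured and 1.06, 1.59 and 5.37 CPM in contralateral ganglia. Sham and injured ganglia overlapped on both diets, and injury gave log2FC 0.86, SE 0.98, adjusted p = 0.714 on SOD and log2FC 1.40, SE 1.02, adjusted p = 0.9997 on FOD by edgeR. The SOD value was 0.44 without SOD-CT replicate 1 and the FOD value 0.80 without FOD-CCI replicate 4.

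The scavenger receptor genes did not separate sham from injured ganglia. Mrc1 was at 5.79, 16.6, 15.2 and 13.9 CPM in SOD-CT, 11.7, 23.8 and 12.3 CPM in SOD-CCI and 4.38, 7.29 and 8.71 CPM in contralateral SOD-CCI ganglia. On fish oil it was at 19.5, 8.43 and 15.001 CPM in sham, 1.38, 22.8, 13.3 and 47.5 CPM in injured and 2.39, 9.85 and 13.1 CPM in contralateral ganglia. The FOD-CCI libraries ran from the lowest to the highest Mrc1 value of all 20. Injury gave log2FC 0.18, SE 0.70, adjusted p = 0.925 on SOD and log2FC 0.63, SE 0.71, adjusted p = 0.9997 on FOD by edgeR. Both directions rested on single libraries, since the SOD value was -0.20 without SOD-CCI replicate 2 and the FOD value -0.12 without FOD-CCI replicate 4. With the replicate number as a block the FOD value was -0.24. The miRNA gene Mir511 lies inside Mrc1 on the same strand and had a median of 0 CPM. Cd163 was the lowest of the 10 per length, with a median of 2.48 CPM in SOD-CT, 2.17 CPM in SOD-CCI, 1.92 CPM in FOD-CT and 3.32 CPM in FOD-CCI. Its highest values, 23.5 and 8.35 CPM, belonged to the libraries richest in red cell and neutrophil transcripts of their diets. Without those libraries the SOD injury log2FC of Cd163 went from -0.58 (adjusted p = 0.861) to 0.49, neither of them called by edgeR.

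Arg1 rose on the injured side against the contralateral side on both diets, with the largest log2FC of the 10, and lay under 3 CPM in all sham and contralateral libraries but FOD-CT replicate 1. It stood at 0, 2.13, 1.39 and 2.36 CPM in SOD-CT, 14.5, 15.7 and 11.8 CPM in SOD-CCI and 1.076, 1.31 and 0.788 CPM in contralateral SOD-CCI ganglia. On fish oil it stood at 8.56, 1.69 and 1.03 CPM in sham, 5.58, 14.004, 29.8 and 24.9 CPM in injured and 0.665, 0.758 and 0.987 CPM in contralateral ganglia. The library labelled FOD-CCI replicate 1 had the lowest Arg1 of its group and FOD-CT replicate 1 the highest of its own, and the FOD sham and injured ranges overlapped only between these libraries. For injury, edgeR gave log2FC 3.19, SE 0.91, adjusted p = 0.266 on SOD and log2FC 2.40, SE 0.94, adjusted p = 0.9997 on FOD. Without the 3 replicate 1 libraries it called Arg1 on both diets (log2FC 2.79, SE 0.37, adjusted p = 0.0185 on SOD and log2FC 4.03, SE 0.46, adjusted p = 0.00995 on FOD).

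Trem2 overlapped between sham and injured ganglia on both diets. It was at 0, 2.08, 4.98 and 1.998 CPM in SOD-CT, 3.36, 8.36 and 4.56 CPM in SOD-CCI and 0.179, 2.86 and 2.46 CPM in contralateral SOD-CCI ganglia. The FOD values were 13.4, 2.65 and 2.99 CPM in sham, 5.80, 5.10, 6.48 and 16.0 CPM in injured and 17.1, 4.06 and 9.75 CPM in contralateral ganglia. The highest and the third highest of the 20 values came from the libraries with the most spinal cord glia transcripts, and the second from FOD-CCI replicate 4. Trem2 is also a microglial gene, and the part of spinal cord tissue in these values was not tested. Injury gave log2FC 1.23, SE 0.91, adjusted p = 0.553 on SOD and log2FC 0.48, SE 0.92, adjusted p = 0.9997 on FOD by edgeR. The FOD value was 1.55 without FOD-CT replicate 1 and -0.033 without FOD-CCI replicate 4.

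Counted together, 9 of the 10 genes had a log2FC above 0 after injury on SOD (all but Cd163), against 49.3% of all genes, and 10 of 10 on FOD, against 50.8%, but none was called in either comparison. The background was the same, since 0% of the 14484 genes tested were called in each. At an unadjusted p under 0.05 edgeR counted 2 of the 10 on SOD (Csf1 and Arg1, both higher), against 5.05% of all genes higher at that p, and 4 on FOD (Csf1, Arg1, Aif1 and Ptprc, all higher), against 3.2%. The median log2FC of the 10 was 0.78 on SOD and 1.44 on FOD, and that of all genes was -0.009 and 0.0065. DESeq2 called 2 of the 10 on SOD (Csf1 and Arg1) among 571 genes, and none of them on FOD among 9. Csf1 and Arg1 were also the 2 members whose SOD-CCI libraries lay wholly above SOD-CT, a separation that 11.8% of all genes shared, while none of the 10 did so on FOD (2.05% of all genes). Without the 3 replicate 1 libraries edgeR called 2 of the 10 on SOD, where 1.32% of genes were called, and 4 on FOD (Csf1, Csf1r, Aif1 and Arg1), where 3.47% were. The diet by injury interaction term was above 0 for 7 of the 10 (51.4% of all genes) and was called for none of them and for 0% of all genes, with 5.01% of genes and no member at an unadjusted p under 0.05. It was log2FC -0.43, SE 0.76, adjusted p = 0.926 for Csf1 and log2FC -0.79, SE 1.22, adjusted p = 0.916 for Arg1 by edgeR. Without FOD-CT replicate 1 both turned, to 0.05 and 0.54, and without the 3 replicate 1 libraries they were 0.64 and 1.24. Blood and muscle markers moved with these comparisons. Of 5 red cell genes, 0 were higher after injury on SOD and 5 on FOD, and of 4 tested neutrophil genes 0 and 4. All 3 tested skeletal muscle genes were lower after injury on SOD (median log2FC -10.2), each at an unadjusted p under 0.05 by edgeR. On FOD the muscle sum was 540 to 21602 CPM in sham and 7.03 to 192 CPM in injured ganglia. The part of blood and muscle in the member values was not tested.

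**Figure D2:**
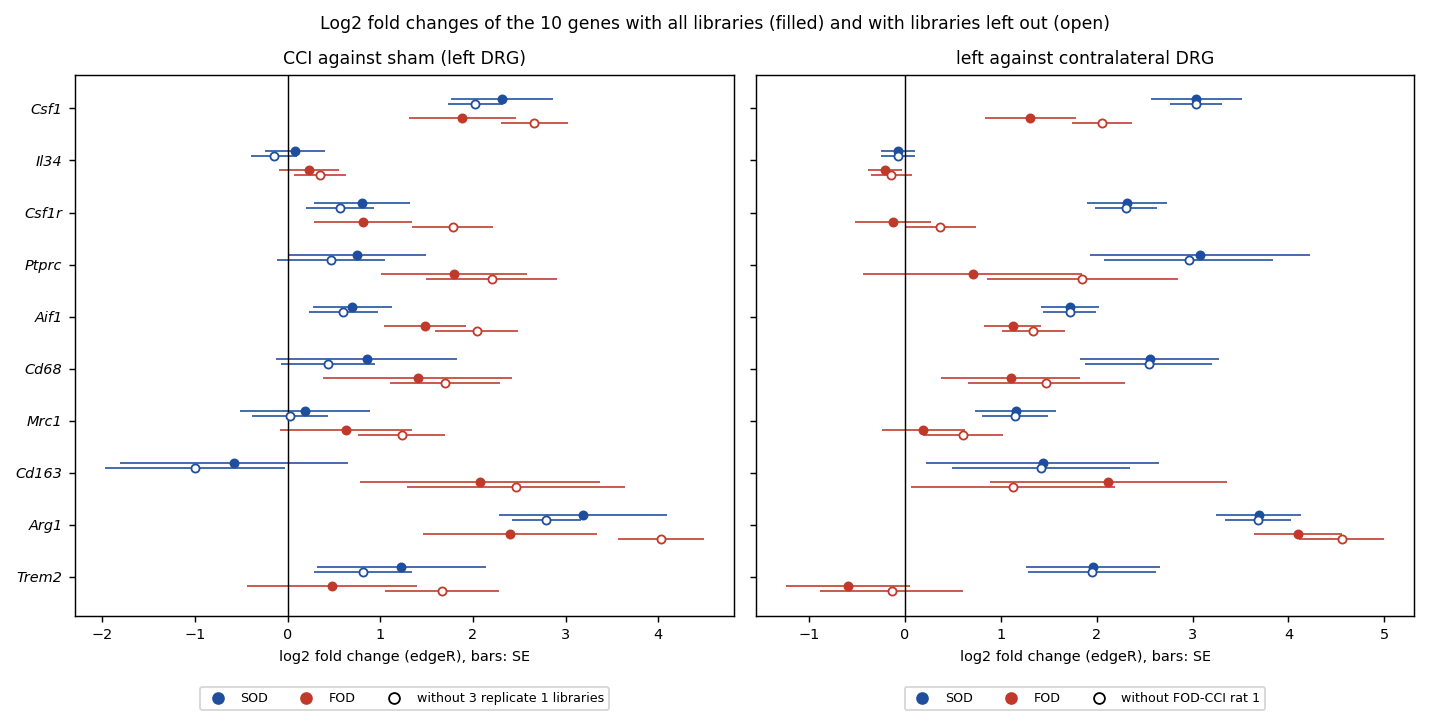
Log2 fold changes from edgeR (horizontal axis, bars are SE) of the 10 genes for CCI against sham in left DRG and for left against contralateral DRG of the same rats, SOD in blue and FOD in red. Filled points use all libraries of the fit, and open points leave out the 3 replicate 1 libraries (first panel) or both DRG of FOD-CCI rat 1 (second panel), which moves Csf1 on FOD from 1.31 to 2.05 in the second panel.

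Comparing both sides of the same rat, Arg1 and Csf1 rose on the injured side of SOD-CCI rats. Csf1 on the injured side was 10.1, 11.2 and 5.46 times its contralateral CPM in rats 1 to 3, and Csf1r 10.3, 5.28 and 2.60 times. The ratio of Arg1 was 13.4, 12.0 and 14.9, that of Aif1 4.61, 3.36 and 2.59 and that of Cd68 9.13, 2.78 and 8.88. All 3 rats were thus higher on the injured side for these 5 genes. Ptprc gave at least 47.4, 8.33 and 2.26, the first against a count of 0 set to 3 counts, and Trem2 18.7, 2.93 and 1.86. Mrc1 gave 2.67, 3.27 and 1.41, Cd163 5.498, 7.20 and 0.468 and Il34 0.969, 0.917 and 1.077. Il34 lay on both sides of 1, and Cd163 was lower on the injured side in rat 3. With the rat as a block, edgeR called Arg1 (log2FC 3.69, SE 0.44, adjusted p = 0.0449) and Csf1 (log2FC 3.04, SE 0.47, adjusted p = 0.0987), 2 of the 10, where 0.131% of the 14549 genes tested were called. Csf1r (log2FC 2.31, SE 0.42, adjusted p = 0.134) and Aif1 (log2FC 1.72, SE 0.30, adjusted p = 0.134) missed the edgeR threshold. DESeq2 called 6 of the 10 (Csf1, Csf1r, Arg1, Aif1, Cd68 and Trem2) among 466 genes, and an edgeR fit to the SOD rats alone also called 6 of the 10, among 1461 genes for left against contralateral in SOD-CCI rats. In all, 9 of the 10 were higher on the injured side, against 52.2% of all genes, 8 of them (all but Il34 and Cd163) at an unadjusted p under 0.05, against 5.34% of genes higher at that level. The same 8 lay above the contralateral range in all 3 libraries, which 12.9% of genes did. These calls were close to the threshold: with any 1 of the 3 SOD-CCI rats left out edgeR called neither Arg1 nor Csf1, and without FOD-CCI rat 2 it called Arg1 alone (Csf1 adjusted p = 0.126). The direction of both held in every such fit. Without the rat labelled FOD-CCI 1, which enters this comparison only through the shared fit, edgeR called 4 of the 10 (Csf1, Csf1r, Aif1 and Arg1), where 3.14% of genes were called.

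In FOD-CCI rats Arg1 again rose on the injured side, as the only member called by edgeR with all rats, while DESeq2 called 3 members. Arg1 on the injured side was 8.39, 18.5 and 30.2 times its contralateral CPM in rats 1 to 3, Aif1 1.55, 3.19 and 2.02 times and Cd68 1.29, 7.02 and 1.14 times, so all 3 rats were higher. The ratio of Csf1 was 0.810, 2.90 and 5.97 and that of Csf1r 0.439, 1.37 and 1.23. Trem2 gave 0.339, 1.26 and 0.665, lower on the injured side in 2 of 3 rats, and Il34 0.759, 0.949 and 0.871, lower in all 3. Mrc1 gave 0.575, 2.31 and 1.014, Ptprc 0.317, 8.17 and 1.61 and Cd163 at least 8.94, 5.30 and 0.859, with rats on both sides of 1 for each. Rat 1, whose ganglia both carried spinal cord glia transcripts, had the lowest ratio for Csf1, Csf1r, Aif1, Arg1, Il34, Mrc1, Ptprc and Trem2. In all, 7 of the 10 were higher on the injured side, against 54.3% of genes, 3 of them (Arg1, Csf1 and Aif1) at an unadjusted p under 0.05, against 4.3% of genes higher at that p. edgeR called Arg1 alone of the 10 (log2FC 4.10, SE 0.46, adjusted p = 0.0717), among 0.0137% of genes called, and gave log2FC 1.31, SE 0.47, adjusted p = 0.624 for Csf1 and log2FC -0.12, SE 0.40, adjusted p = 0.962 for Csf1r. DESeq2 called 264 genes in this comparison, among them Arg1, Csf1 (log2FC 1.31, SE 0.40, adjusted p = 0.0790) and Aif1 (log2FC 1.12, SE 0.35, adjusted p = 0.0830). Arg1 and Aif1 lay above the contralateral range in all 4 FOD-CCI libraries, as 2.4% of genes did. Leaving out any rat other than the one labelled FOD-CCI 1 took the Arg1 call away (adjusted p from 0.184 to 0.456), with its log2FC between 3.69 and 4.56 over all 6 fits. Without the rat labelled FOD-CCI 1, edgeR called Arg1 (log2FC 4.56, SE 0.44, adjusted p = 0.00524) and Csf1 (log2FC 2.05, SE 0.32, adjusted p = 0.0358), where 0.914% of genes were called, and the log2FC of Csf1r was 0.37.

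**Figure D3:**
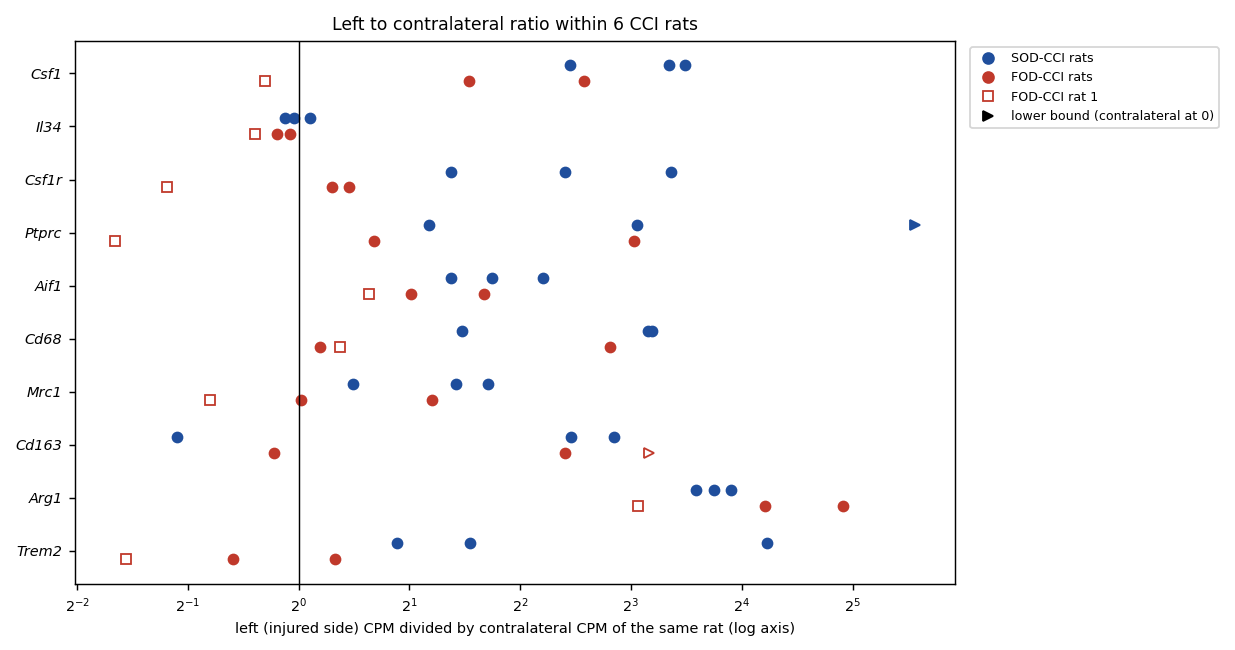
Left (injured side) CPM divided by contralateral CPM in each of 3 SOD-CCI (blue) and 3 FOD-CCI (red) rats, on a log axis with 1 marked as a line, open symbols for FOD-CCI rat 1 and triangles where the contralateral count was 0, so that the ratio is a lower bound. Arg1 lay to the right of 1 in all 6 rats (from 8.39 to 30.2) and Il34 close to it.

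The left to contralateral change of Csf1r differed between the diets by DESeq2 but not by edgeR, with a log2FC of 2.31 on SOD and -0.12 on FOD. By edgeR the FOD value minus the SOD value was log2FC -2.44, SE 0.57, adjusted p = 0.997 for Csf1r, log2FC -1.73, SE 0.64, adjusted p = 0.997 for Csf1 and log2FC -2.56, SE 0.95, adjusted p = 0.997 for Trem2. The difference was above 0 in 2 of the 10 genes (Arg1 and Cd163), against 53.2% of all genes. None of the 10 and 0% of all genes were called, and these 3 members had an unadjusted p under 0.05, all lower on FOD, against 2.11% of all genes lower at that p. Other cell types moved with this difference: 0 of 5 fibroblast genes were above 0 (median -1.78, 4 lower at that p) and 10 of 10 sensory neuron genes were (0.94, none at that p), and their part in the member values was not tested. DESeq2 called 60 genes here, Csf1r among them (log2FC -2.42, SE 0.53, adjusted p = 0.00487). Without the rat labelled FOD-CCI 1 the edgeR log2 difference was -1.94 for Csf1r and -0.98 for Csf1. On the contralateral side itself, Csf1r ran from 5.17 to 26.9 CPM on SOD and from 45.1 to 109.8 CPM on FOD. Aif1 ran from 3.66 to 5.61 CPM on SOD and from 10.2 to 14.4 CPM on FOD. With Csf1, Ptprc and Trem2, these were 5 of the 10 genes whose contralateral FOD values all lay above the contralateral SOD values, a separation found in 8.04% of genes. No member was wholly lower in contralateral SOD-CCI than in SOD-CT ganglia (3.19% of genes were), and on FOD this held for Arg1 alone (5.12% of genes). The comparison of contralateral ganglia between diets is given as levels, with no test, and 1 of the 3 contralateral FOD libraries is the one with the most spinal cord glia transcripts. Red cell genes summed to 107 to 265 CPM in contralateral SOD-CCI and 845 to 3913 CPM in contralateral FOD-CCI ganglia. Neutrophil genes summed to 15.1 to 31.5 CPM and 134 to 491 CPM in the same groups. The part of blood in these levels, and in the difference between diets, was not tested.

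Between the diets after injury, no member was called and no member separated the groups. Left FOD-CCI and SOD-CCI ganglia differed by log2FC -0.19, SE 0.54, adjusted p = 0.969 for Csf1 and log2FC 0.94, SE 0.43, adjusted p = 0.859 for Aif1 in edgeR, with 0% of genes called. Without the library labelled FOD-CCI replicate 1 the Csf1 value was 0.12. Aif1 was the only member at an unadjusted p under 0.05, against 3.87% of all genes higher at that p. FOD-CCI was above SOD-CCI in 9 of 10 genes (all but Csf1), against 54.3% of all genes, with a median log2FC of 0.53 against 0.043 for all genes. Blood and spinal cord markers moved the same way: 4 of 4 tested neutrophil genes (median log2FC 4.67) and 5 of 5 red cell genes (4.51) were higher on FOD, all at an unadjusted p under 0.05, as were 4 of 4 tested spinal cord glia genes (3.06), none at that p. Red cell genes summed to 80.3 to 577 CPM in SOD-CCI and 449.6 to 17666 CPM in FOD-CCI ganglia, and their part in the member values was not tested. The share of genes with FOD-CCI wholly above SOD-CCI was 5.92%, and none of the 10 was among them. In sham ganglia 8 of 10 were higher on FOD (48.6% of all genes were), from -0.83 for Cd163 to 1.44 for Trem2 on the log2 scale. Cd163 was 0.24 without SOD-CT replicate 4, and Trem2 0.37 without FOD-CT replicate 1. With the 3 replicate 1 libraries left out, 0 of 10 were higher. None was called in either fit (0% of genes), had an unadjusted p under 0.05 with all libraries (3.39% of genes) or was wholly higher on FOD (2.22% of genes).

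Other macrophage genes were also mostly higher on the injured side. Of 23 further macrophage genes (Lyz2, Ctss, Mpeg1 and others, none of them a member), 20 were tested in the left to contralateral fit, and all 20 were higher on the injured side of SOD rats, 15 at an unadjusted p under 0.05 and none called. Their median log2FC was 1.81, against 0.019 over all genes. Of all genes, 52.2% were higher there, 5.34% were higher at that p, and 0.131% were called. In FOD rats 17 of the 20 were higher, with a median of 0.32 and none at that p. Of all genes, 54.3% were higher in FOD rats, and 4.3% were higher at that p. The summed CPM of the 23 genes was 158 to 363 in contralateral SOD-CCI, 152 to 842 in SOD-CT and 659 to 1058 in SOD-CCI ganglia. It was 581 to 991 in contralateral FOD-CCI, 306 to 845 in FOD-CT and 448 to 2589 in FOD-CCI ganglia, with replicate 1 the lowest of the last group. Against sham, 18 of 22 tested were higher after injury on SOD (median log2FC 0.59) and 20 of 22 on FOD (1.41). Of these, 10 on FOD and none on SOD had an unadjusted p under 0.05. Over all genes, 49.3% on SOD and 50.8% on FOD were higher, and 5.05% and 3.2% were higher at that p.

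Genes that act with the members gave a mixed picture. Of all genes, 52.2% were higher on the injured side of SOD rats, and 5.34% were higher at an unadjusted p under 0.05. Of 20 genes of colony stimulating factor signalling, 17 were tested and 13 were higher on the injured side of SOD rats (median 0.53), 4 of them at an unadjusted p under 0.05 and none called. Stat3, a transcription factor used by many receptors and among the most abundant of them, gave a log2FC of 0.53 there, with an edgeR adjusted p of 0.556. Of 16 genes of the TREM2 and lipid response of phagocytes, 13 of 15 tested were higher (median 0.59) and 8 at that p. The most abundant, Apoe, is made by satellite glia as well and had a log2FC of 0.20 (adjusted p = 0.893). Of 16 genes of arginine metabolism and alternative activation, only 10 were tested and 5 were higher (median 0.0088). Odc1, which takes the ornithine made by arginase to putrescine, had a log2FC of -0.065 (adjusted p = 0.963). Among the monocyte recruitment genes, the chemokine gene Ccl2 rose on the injured side of SOD rats (log2FC 2.67, SE 0.33, adjusted p = 0.0449) and had nearly the same difference in FOD rats without passing (log2FC 2.57, SE 0.33, adjusted p = 0.132). The genes of injured sensory neurons were higher on the injured side in 10 of 10 tested in both diets, with 4 called in SOD rats (Jun, Gal, Ecel1 and Adcyap1) and none in FOD rats. Of all genes, 0.131% were called in SOD and 0.0137% in FOD rats. The study reports Adcyap1 as reduced in SOD-CCI relative to SOD-CT, the opposite direction.

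Across the 14 left libraries, 1 per rat, the 10 genes did not follow a single pattern. As a description, Spearman's rho of log2 CPM was 0.94 between Csf1 and Arg1, 0.86 between Csf1r and Trem2 and 0.85 between Csf1 and Csf1r. Il34 correlated with no other member above 0.451. With the 3 replicate 1 libraries left out, the first of these was 0.93, the next 0.87 and the last 0.85. Among all tested genes, those most like Csf1 were Rab33b (0.96), Rnf19b (0.95) and Tle3 (0.95), and those most like Arg1 were Fam65c (0.97), Gch1 (0.97) and Rab33b (0.96). Gch1, the first enzyme of tetrahydrobiopterin synthesis, is known to be induced in injured sensory neurons. Ptprc was most like Gpnmb (0.96), a gene of phagocytes, and Trem2 most like Pld4 (0.95) and Gpr34 (0.95), both expressed by microglia. Next came Prkcdbp and Lyc2 (both 0.95) for Ptprc and Nono (0.93) for Trem2. These nearest genes were unstable, since 4 of the 30 stayed among the nearest without the 3 replicate 1 libraries. All values share the library totals and the group structure, so they describe these libraries.

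**Figure D4:**
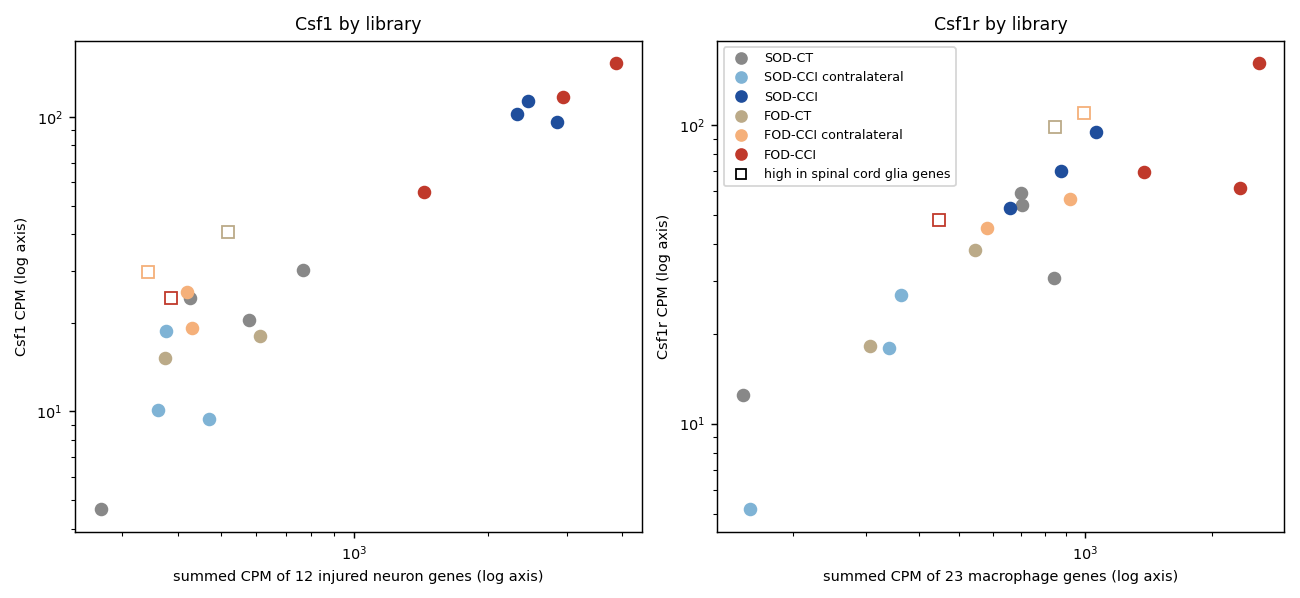
Csf1 CPM against the summed CPM of 12 injured sensory neuron genes, and Csf1r CPM against that of 23 macrophage genes, in all 20 libraries (log axes), coloured by group with open squares for libraries high in spinal cord glia genes. The 6 injured-side libraries other than FOD-CCI replicate 1 stood at 1432 to 3884 CPM on the first horizontal axis and were the 6 highest for Csf1, and the library labelled FOD-CCI replicate 1 sat among the sham and contralateral libraries on both measures.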

How the data were processed

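Whole-DRG RNA of the 20 samples was sequenced from poly-A libraries. Per the labels and the study's methods, reads were trimmed (fastp) and aligned (HISAT2), and the authors deposited the read counts per gene from featureCounts 1.5.0-p3. Their FPKM, deposited beside them, scales the counts by gene length and by a factor per library, and served here only to order genes by level. That factor was not the library total. Counts per kilobase over FPKM were 14.3 in SOD-CT replicate 1 (22792829 counts) and 31.8 in SOD-CT replicate 3 (29528350 counts). The genome build and the use of strand are not given in the sources used here.

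Groups came from the sample titles. Genes that reached 10 counts in 90% or more of a fit's libraries were tested in edgeR 4.0.16 (R 4.3.3, limma 3.58.1) by its quasi-likelihood test with TMM factors. The 14 left libraries were fitted with 4 group means, and the 12 libraries of 6 CCI rats with the rat as a block. A gene was called where its p, adjusted by Benjamini-Hochberg, was 0.1 or lower and its fold change 1.2 or more. The SE printed with edgeR values is the absolute log2FC divided by the square root of the test's F statistic. DESeq2 values carry the SE that DESeq2 gives. CPM values are counts scaled to the library total, which ranged from 22547190 to 54437581. Intervals and limits from counts cover counting error only, and p-values of the left libraries measure the spread between these rats. With the rat as a block, they measure the spread of the left to contralateral difference between these rats. The steps were tested on simulated data with a fixed dispersion, chosen so that added changes could be recovered. That does not show how the tests behave at the spread of these libraries. All 10 genes are named; from other lists, counts, called genes, the 3 most abundant genes and genes marking another tissue, and for each of the 10 the 3 genes of highest rank correlation. The 10 genes and the lists were chosen with earlier results of these data known.

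Both sides of a rat deviated together from their group means (correlation over genes from 0.132 to 0.415), as did same-numbered FOD-CT and FOD-CCI samples (0.184 to 0.419), while same-numbered SOD-CT and SOD-CCI samples did not (-0.0597 to 0.0791). The alternatives were DESeq2 1.42.0, other size factors and filters, fits with and without the block, and leaving out libraries. No replicates were identical. Promoters were read from RefSeq tables of GRCr8, which held 6 of the 10 genes.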

Additional observations from a re-analysis of the deposited data

Results flagged for a closer look

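The Trem2 level of FOD-CCI replicate 4 was 16.0 CPM, and the other 3 libraries of that group ran from 5.10 to 6.48 CPM. Its gap to the nearest of the others was 0.874 of the range of the group, above the Dixon limit for 4 samples. It was the only such library among 24 groups of 4 samples tested, and chance alone gives about 1 in 20. The same library was the highest of its group for Csf1r, Aif1, Cd68, Mrc1 and Il34.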

How the results depend on the processing

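Under edgeR with all libraries, most member log2FC kept their direction. It turned in 0 of 118 alternative values for left against contralateral SOD-CCI DRG, 3 of 119 for FOD-CCI DRG and 2 of 110 for the difference between them. It turned in 7 of 216 values for injury on SOD, 5 of 220 for injury on FOD, 9 of 220 for diet after injury, 27 of 216 for diet in sham rats and 26 of 210 for the diet by injury term. The causes were not tested.

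With the replicate block, Cd163 became 0.63 (SOD injury), 0.80 (diet in sham) and -0.10 (diet by injury), and Il34 -0.050 and Mrc1 -0.24 (FOD injury). The block left 1 gene called for SOD injury and changed no member call against sham. With replicate 1 of SOD-CT, FOD-CT and FOD-CCI left out, Il34 was -0.15 (SOD injury), Csf1 0.12 (diet after injury), Trem2 -0.027 (diet in sham), and the diet by injury terms of Arg1 and Csf1 were 1.24 and 0.64. That alternative called 200 genes and 2 members for SOD injury, 526 genes and 4 members for FOD injury, and kept 4 of the 30 genes most like a member. The libraries it left out were singled out from these same data. Without SOD-CT replicate 4 and FOD-CCI replicate 2, a pair chosen after seeing the data, Cd163 was 0.49 (SOD injury), 0.24 (diet in sham) and -0.025 (diet by injury).

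DESeq2 called 571 genes for SOD injury (2 members), 9 for FOD injury, 2 for diet after injury, 2 for diet by injury, 466 for the sides of SOD rats (6 members), 264 for those of FOD rats (3 members) and 60 for their difference (1 member). For left against contralateral in SOD-CCI rats and left against contralateral in FOD-CCI rats, no filter gave 220 and 61 genes (3 for the difference, and 4 members in SOD), filterByExpr 39 and 5, and a fit to the rats of 1 diet 1461 and 1 (6 members and 0). Without the rat block (no pairing) there were 0 genes and 0 members in both. Relative log expression factors called 1 member in SOD rats, fewer than the 2 of the main fit, and their count over all genes is not given here.

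Leaving out 1 library or rat at a time gave 0 to 47 genes and 0 to 1 members called for SOD injury, 0 to 43 genes for FOD injury, 0 to 471 genes and 0 to 4 members for the sides of SOD rats and 0 to 137 genes and 0 to 2 members for those of FOD rats. Each highest count came without the library or rat labelled FOD-CCI 1. The lowest and highest log2FC, where the direction turned, were -1.22 and 0.48 for Cd163, -0.15 and 0.29 for Il34 and -0.20 and 0.35 for Mrc1 (SOD injury), and -0.046 and 0.37 for Il34, -0.12 and 1.02 for Mrc1 and -0.033 and 1.55 for Trem2 (FOD injury). They were -0.61 and 0.12 for Csf1 (diet after injury), -1.24 and 0.24 for Cd163 (diet in sham), and -1.24 and 0.54 for Arg1 and -0.84 and 0.050 for Csf1 (diet by injury). For the sides of FOD rats they were -0.43 and 0.37 for Csf1r, -0.35 and 0.61 for Mrc1 and -0.45 and 1.85 for Ptprc, and -0.39 and 2.01 for Cd163 in the difference between diets. With 3 or 4 rats a group, an SE near 1 against sham for Arg1, Cd163, Cd68 and Trem2 limited what these libraries could show. A p that missed the threshold does not show equal levels.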
